A study of Mus musculus with 12 samples.

Results

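The complement genes measured here were 9 genes of the classical and alternative pathways, C1qa, C1qb, C1qc, C1ra, C1s1, C2, C3, C4b and Cfb, taken as the rows of the count table with these symbols, and they were 9 of 25171 loci. RNA of 12 mouse hearts had been sequenced, 3 in each of 4 groups. All mice carried a conditional NOTCH2NLC transgene with 98 GGC repeats at the Rosa26 site, which Cre recombinase switches on by removing a stop sequence. EIIa-tg mice also carried EIIa-Cre, a Cre active in all tissues, and EIIa-ctl mice were their littermates without it, and hearts of both groups were taken at postnatal day 30. Myh6-tg and Myh6-ctl mice carried Myh6-creERT2, a Cre restricted to cardiomyocytes and dependent on tamoxifen, and were taken at day 90. Myh6-tg mice received tamoxifen at 75 mg per kg in corn oil, 3 injections on alternate days from day 60, and Myh6-ctl mice received corn oil. The questions were whether transcripts of this pathway differed between transgenic and control hearts of each model, and whether the change differed between a transgene expressed in all tissues and a transgene expressed in cardiomyocytes.

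Complement is a cascade of secreted proteins that coat targets for uptake by phagocytes, release peptides that attract leukocytes and can form a pore in membranes. In the classical pathway C1q, built from the products of C1qa, C1qb and C1qc, binds antibody or cell debris and activates the proteases C1r and C1s, which cut C4 and C2 to form an enzyme that cleaves C3. In the alternative pathway a C3 fragment binds factor B, the product of Cfb, and this amplifies C3 cleavage. In tissues C1q is known mainly as a product of macrophages, whereas C1r, C1s, C3, C4 and factor B are also made by fibroblasts and other resident cells and by the liver.

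The hearts had been counted to between 38343106 and 50969834 reads each, and 3 counts, taken as the floor of detection, correspond to 0.0568 to 0.0815 normalised CPM (counts scaled to the size of the heart's total and, by TMM over the 12 hearts, to its composition). Cardiomyocyte markers were abundant in every heart, with 8 markers summing to between 9256 and 50706 normalised CPM, and the tissue label heart was taken although the extraction text of the labels speaks of brain. Counts of mitochondrially encoded genes took 28.5% to 38.3% of the total in 9 hearts and 15.5% to 18.6% in the 3 Myh6-tg hearts. Y-linked genes had 4224 to 7307 counts in each group's replicate 1 and no more than 2 counts elsewhere, so that each group held the same mix. Esr1 encodes the oestrogen receptor, of which creERT2 contains the hormone-binding portion. It was at 2330, 1383 and 1030 normalised CPM in Myh6-ctl hearts and at 1.3, 2.52 and 1 in Myh6-tg hearts, although the labels give both groups the same genotype. In the EIIa hearts it was between 0.408 and 1.23. The cause of this difference was not tested, and in the Myh6 comparison anything else that separates the groups cannot be told apart from the tamoxifen treatment. The genotype labels of EIIa-tg replicates 2 and 3 are spelled differently from that of replicate 1, and these hearts were grouped by their titles.

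The members lie in 4 places of the GRCm38 assembly (GENCODE M21 gene models). C1qb, C1qc and C1qa follow each other within 18675 bp on chromosome 4, from 136880129 to 136898803. C1ra and C1s1 lie tail to tail on chromosome 6, within 29955 bp from 124512405 to 124542359. C4b, Cfb and C2 lie within 169886 bp on chromosome 17, from 34728380 to 34898265, and C3 lies apart from them on the same chromosome, from 57203970 to 57228136. RefSeq promoter entries matched 5 of the 9 members (C1qb, C1qc, C1ra, C1s1 and C3). The 250 bases before the start site of C1qb, C1s1 and C3 (RefSeq, GRCm38.p6, each 5′ to 3′ on the gene's own minus strand) are shown because these genes stand for the C1q group, which moved together, for the C1 proteases and for C3, the member with the largest change in EIIa-tg hearts. Capitals mark matches to AGGAAG, the core recognised by PU.1 and other ETS factors of myeloid cells, or to TTGCNNAA, a C/EBP motif, on either strand.
C1qb, chr4:136886201-136886450: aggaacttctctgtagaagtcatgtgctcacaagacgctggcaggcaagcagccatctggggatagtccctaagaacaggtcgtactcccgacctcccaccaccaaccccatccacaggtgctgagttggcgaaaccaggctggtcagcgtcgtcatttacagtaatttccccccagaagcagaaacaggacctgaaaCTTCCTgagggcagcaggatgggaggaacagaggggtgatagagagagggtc
C1s1, chr6:124542360-124542609: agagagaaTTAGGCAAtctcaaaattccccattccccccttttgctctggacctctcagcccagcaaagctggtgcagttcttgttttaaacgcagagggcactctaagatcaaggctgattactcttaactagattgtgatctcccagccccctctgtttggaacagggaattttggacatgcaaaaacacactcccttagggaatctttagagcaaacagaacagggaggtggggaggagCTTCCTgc
C3, chr17:57228137-57228386: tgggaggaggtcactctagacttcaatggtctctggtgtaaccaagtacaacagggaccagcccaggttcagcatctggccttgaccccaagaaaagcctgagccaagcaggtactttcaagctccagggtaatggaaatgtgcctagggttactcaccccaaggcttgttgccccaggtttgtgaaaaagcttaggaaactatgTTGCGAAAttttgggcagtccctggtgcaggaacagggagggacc
In C1qb the reverse complement of the ETS core, CTTCCT, lay at positions -52 to -47 from the start site. In C1s1 it lay at -8 to -3, and a C/EBP match lay at -242 to -235. In C3 the sequence TTGCGAAA, a C/EBP match, lay at -45 to -38. The window of C1qc, which lies partly inside the GENCODE gene model, held 2 ETS matches, at -194 to -189 and -157 to -152, and that of C1ra, also partly inside its gene model, held no match. Among all 32851 promoters, 29.5% held AGGAAG and 9.56% held TTGCNNAA in the same 250 bases on either strand. The gamma-activated site motif TTCNNNGAA (in 7.02% of promoters) and the TATA box core TATAAA (in 12.4%) had no match in the 5 windows. No match overlapped another in the windows shown, and a match is a description of the letters, not of binding.

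Compared per length, in FPKM as the authors computed it, the C1q genes were the most abundant members in all 4 groups. In EIIa-ctl hearts C1qb was at 62 ± 18.1 FPKM (SD, n = 3), C1qa at 54.1 ± 15.1 and C1qc at 45.3 ± 13.2, which overlapped each other. C3 followed at 10.3 ± 1.8 FPKM, C1s1 at 9.51 ± 1.31 and C1ra at 6.74 ± 1.82. The genes of the C3-cleaving enzymes were lowest, with C4b at 1.53 ± 0.203 FPKM, Cfb at 1.02 ± 0.196 and C2 at 0.474 ± 0.19. The order of the group means was the same in EIIa-tg and Myh6-ctl hearts, and in Myh6-tg hearts C1ra (20.5 ± 4.75 FPKM) stood just above C1s1 (19.9 ± 5.71), within their spread. Neighbours in the order that overlapped in every group were C1qb with C1qa and C1qa with C1qc. The FPKM of the 9 genes summed to 191 ± 50.8 in the EIIa-ctl group, against 448 ± 120 for EIIa-tg, and to 384 ± 99.6 in the Myh6-ctl group, against 697 ± 168 for Myh6-tg. FPKM is not scaled by TMM. In normalised CPM the sums were 328 ± 64.3 for EIIa-ctl and 816 ± 201 for EIIa-tg, without overlap. They were 806 ± 173 for Myh6-ctl (607 to 921) and 1019 ± 293 for Myh6-tg (810 to 1354), which overlapped. C1q transcripts made up 84.3% ± 1.42 of the FPKM sum for EIIa-ctl, against 76.7% ± 4.65 for EIIa-tg. For Myh6-ctl they made up 76% ± 8.95 of it, against 81.5% ± 4.23 for Myh6-tg. The share of C3 in the FPKM sum was 5.49% ± 0.935 for EIIa-ctl and 12.9% ± 3.43 for EIIa-tg. It was 14% ± 6.93 for Myh6-ctl and 9.08% ± 1.81 for Myh6-tg.

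**Figure D1:**
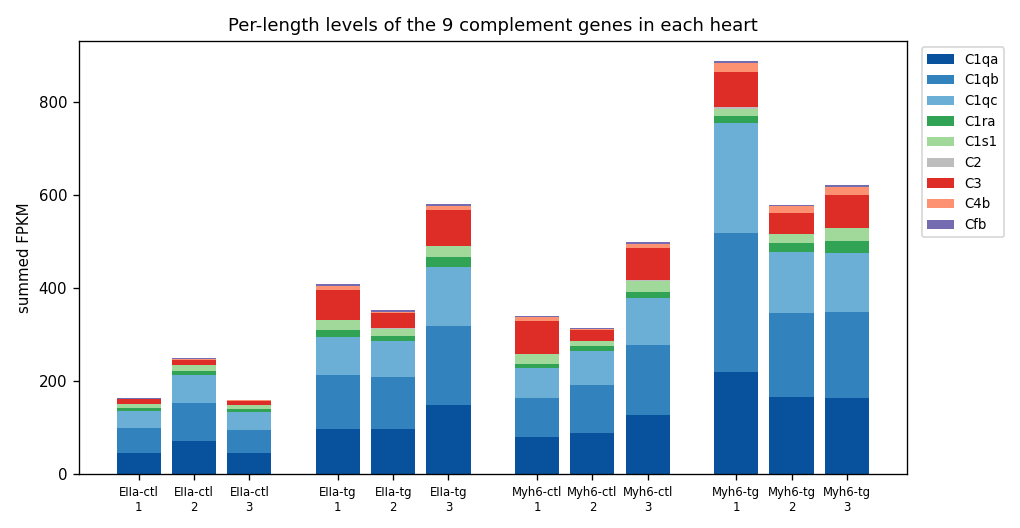
Each bar is 1 heart and its height is the summed FPKM of the 9 complement genes, coloured by gene. The sums run from 160 to 250 for EIIa-ctl, from 352 to 582 for EIIa-tg, from 314 to 498 for Myh6-ctl and from 580 to 889 for Myh6-tg, and the C1q genes fill most of every bar. FPKM is not scaled by TMM, and in normalised CPM the sums of Myh6-ctl and Myh6-tg hearts overlapped.

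In EIIa-tg hearts 8 of the 9 complement genes were higher than in EIIa-ctl hearts and none was lower, at an adjusted p under 0.05 in edgeR's quasi-likelihood test with Benjamini-Hochberg adjustment over 14908 genes. C3 rose 4.91-fold, C4b 3.75-fold and Cfb 3.15-fold, and the 3 C1q genes and both C1 proteases rose between 1.80-fold and 2.05-fold. C2 was the exception. Of all genes tested, 8.65% were called higher and 8.3% lower. The median log2 fold change was 0.90 over the members and 0.02 over all genes. In the same 8 members every EIIa-tg heart lay above every EIIa-ctl heart, which held for 20.3% of all genes. At the stricter rule of the study's methods, an adjusted p under 0.01 and at least a doubling or halving, 0 of the 9 members and 0 of all genes (0%) passed in edgeR, where the smallest adjusted p of any gene was 0.0135. With DESeq2, the tool the study used, 4 members passed it (C1ra, C3, C4b and Cfb), as did 4.29% of 19472 genes. In edgeR it was passed by 3 members without the filter on low counts (C3, C4b and Cfb) and by the same 4 as in DESeq2 without EIIa-tg replicate 2.

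C3, on which the pathways converge, was at 64.5, 66 and 48.8 normalised CPM in EIIa-ctl hearts and at 342, 171 and 371 in EIIa-tg hearts. Replicate 2 was the lowest EIIa-tg heart, and it still lay above every control heart. The log2 fold change of C3 was 2.29 (SE 0.27, adjusted p = 0.0135). Cfb, which encodes factor B, was at 1.96, 3.44 and 3.40 normalised CPM in EIIa-ctl hearts and at 7.72, 7.21 and 12.9 in EIIa-tg hearts. These ranges did not overlap, and the log2 fold change was 1.66 (SE 0.30, adjusted p = 0.018). The read-through locus Gm20547 overlaps 6107 bp of Cfb and 19439 bp of C2 and was counted at 0 to 36 reads per heart, so reads of the 3 loci may have been divided among them.

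C4b, whose product is cut by C1s, was at 9.70, 10.1 and 8.18 normalised CPM in EIIa-ctl hearts and at 48.9, 18.6 and 38.3 in EIIa-tg hearts. Replicate 2 was again the lowest of the EIIa-tg hearts, and the groups did not overlap. Its log2 fold change was 1.91 (SE 0.31, adjusted p = 0.0166). The near-identical gene C4a is not among the loci used here, so reads of both copies could have been counted on C4b. C2, which binds the C4 fragment to complete the classical enzyme, was at 0.888, 1.93 and 1.47 normalised CPM in EIIa-ctl and 2.12, 1.51 and 2.78 in EIIa-tg hearts. Here the groups overlapped, and the log2 fold change of 0.58 (SE 0.38) had an adjusted p of 0.314. C2 was counted at only 39 to 125 reads in these 6 hearts, the fewest of any member.

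The 3 C1q genes moved together. C1qa was at 54.5, 80.7 and 54.8 normalised CPM in EIIa-ctl hearts and at 103, 104 and 144 in EIIa-tg hearts. C1qb was at 70.9, 97.4 and 59.9 in EIIa-ctl hearts and at 129, 125 and 172 in EIIa-tg hearts. For both genes the control replicate 2 was the highest control heart and EIIa-tg replicate 3 the highest transgenic heart, which was also true of C1qc. The log2 fold changes were 0.88 (SE 0.19) for C1qa, 0.90 (SE 0.19) for C1qb and 0.87 (SE 0.20) for C1qc, with edgeR adjusted p-values of 0.0247, 0.024 and 0.0284. Their ratios hardly moved, with 1.14 ± 0.1 FPKM of C1qb per FPKM of C1qa for EIIa-ctl and 1.17 ± 0.0306 for EIIa-tg. In bulk tissue, a different number of cells that make these transcripts and a different amount of RNA in each such cell cannot be told apart.

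C1ra and C1s1, which encode the proteases bound to C1q, rose to a like degree. C1ra was at 17.6, 28 and 22.3 normalised CPM in EIIa-ctl and 46.9, 34.7 and 58.4 in EIIa-tg hearts. C1s1 was at 29.9, 35.1 and 29.2 in EIIa-ctl and 61.2, 45.5 and 63.2 in EIIa-tg hearts. EIIa-tg replicate 2 was the lowest transgenic heart for both, and the groups were apart. The log2 fold changes were 1.04 (SE 0.22, adjusted p = 0.0229) for C1ra and 0.85 (SE 0.14, adjusted p = 0.0166) for C1s1. The near-identical copies C1rb and C1s2 on the same chromosome were counted at up to 145 and 34 reads per EIIa heart, so the split between copies is uncertain. These counts were small beside the 774 to 2621 reads of C1ra and the 1076 to 2840 reads of C1s1 in the same 6 hearts.

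**Figure D2:**
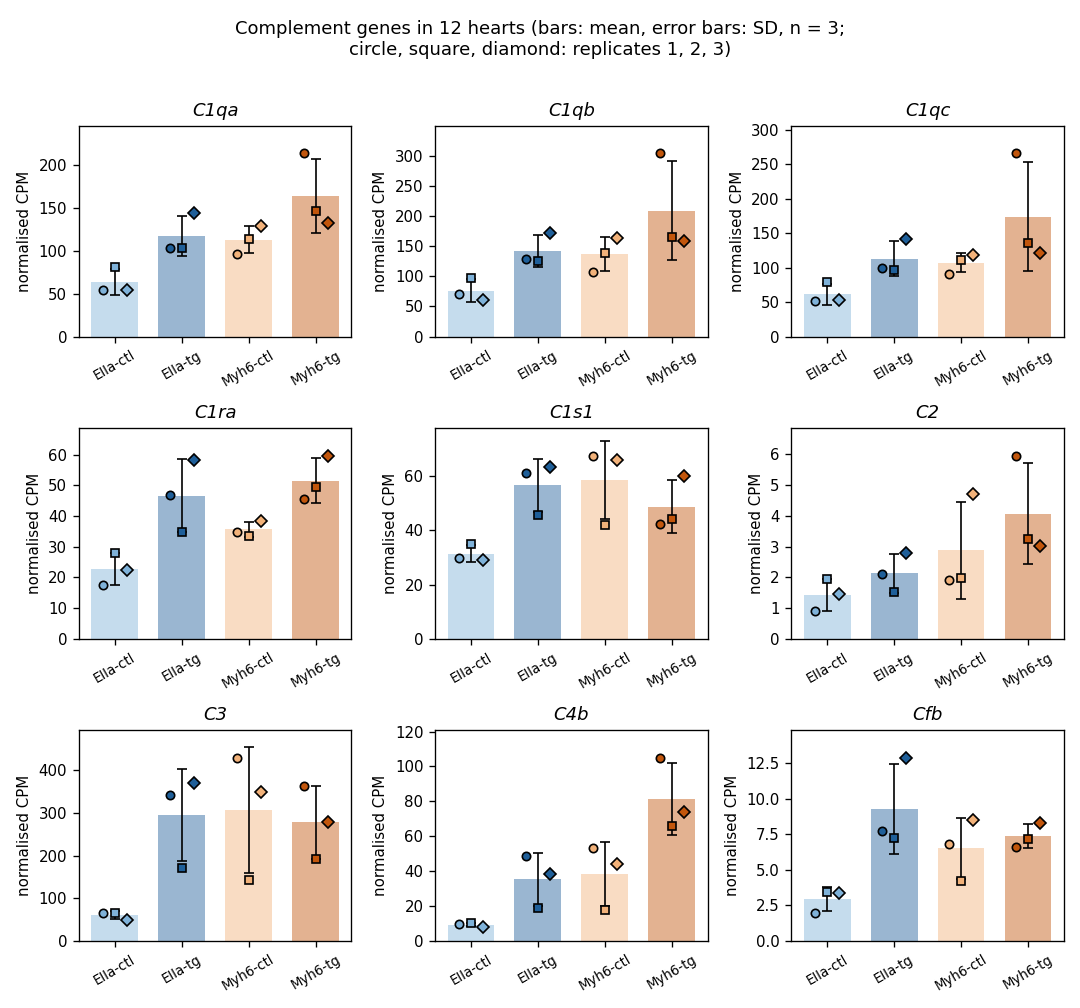
Each panel is 1 gene, with normalised CPM on a linear axis from 0, a bar for the mean and an error bar for the SD of the 3 hearts of a group, and symbols for single hearts. C3, C4b and Cfb show the largest steps from EIIa-ctl to EIIa-tg, and replicate 2 (squares) is the lowest heart for C3 and C4b in EIIa-tg, Myh6-ctl and Myh6-tg.

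The calls in the EIIa comparison rested on which hearts were in the test, while the size of the changes did not. Leaving out replicate 2 of EIIa-ctl or of EIIa-tg kept 8 members called, and leaving out EIIa-tg replicate 3 left 1. Of all genes, 11.7%, 26.6% and 0.877% were then called, in this order. Leaving out EIIa-ctl replicate 1, EIIa-ctl replicate 3 or EIIa-tg replicate 1 left 0, and then at most 1 of all genes was called. Over these 6 tests the log2 fold change of C3 lay between 2.10 and 2.56, and the median of the members between 0.77 and 1.11. With all 12 hearts in one fit, 4 members were called (C1ra, C3, C4b and Cfb), as were 1.43% of all genes. DESeq2 called 8, with adjusted p-values from 2.45e-18 for C3 to 0.000305 for C1qc among them, and it called 18.2% of all genes.

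Markers of several cell types also differed between EIIa-tg and EIIa-ctl hearts. Of all genes, 8.65% were called higher and 8.3% lower. Of 14 macrophage markers, 10 were called higher in EIIa-tg hearts, among them Cd68 (log2 fold change 1.59) and Adgre1 (1.04), and Timd4 was called lower. Their summed level was 418 to 640 normalised CPM in EIIa-ctl and 910 to 1155 in EIIa-tg hearts. Of 9 fibroblast markers 3 were called higher (sums of 2851 to 3734 against 4735 to 6600), of 5 neutrophil markers 2 were called higher (2.91 to 3.03 against 6.51 to 8.17), and of 8 cardiomyocyte markers 2 were called lower (41990 to 50706 against 20707 to 36597). Relative to the mean log2 level of the macrophage markers, the mean of the C1q genes stood 1.96 ± 0.0608 above it for EIIa-ctl and 2.14 ± 0.11 above it for EIIa-tg. The hepatocyte sum was small, 1.77 to 3.52 against 5.28 to 18 normalised CPM, and of its defining markers Alb reached 0.478 in EIIa-ctl hearts and 5.15 in EIIa-tg hearts. The part of these cell types in the complement changes was not tested.

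In Myh6-tg hearts none of the 9 complement genes was called against Myh6-ctl hearts by edgeR at an adjusted p under 0.05, although 8.96% of the 15298 genes tested were called higher and 9.38% lower. The fitted log2 fold change was above 0 in 7 members and below 0 in 2, with a median of 0.53 against 0.03 over all genes. C4b had the largest log2 fold change, 1.09 (SE 0.39, adjusted p = 0.0922), and C3, with the largest change in the EIIa model, was at -0.15 (SE 0.41, adjusted p = 0.842). Unadjusted p-values were under 0.05 for 2 members, C4b (0.0245) and C1ra (0.0148). At the stricter rule 3.97% of all genes and 0 members passed. DESeq2 called C4b alone (adjusted p = 0.0279), as did edgeR with a replicate block (log2 fold change 1.20, adjusted p = 0.021). Of all genes, 19.3% and 20.9% were called in these fits. Same-numbered hearts of the 2 groups deviated together, but the labels do not pair them, so whether the block applies is not known. In both groups replicate 1 was also the heart with high Y-linked counts (5245 in Myh6-ctl and 7307 in Myh6-tg).

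C4b was at 53.5, 17.7 and 43.8 normalised CPM in Myh6-ctl hearts and at 105, 65.9 and 73.6 in Myh6-tg hearts. The groups did not overlap, and replicate 2 was the lowest heart of each. C3 was at 430, 143 and 349 in Myh6-ctl and at 364, 192 and 278 in Myh6-tg hearts. Here the groups overlapped fully within the range of the controls, and replicate 2 was again the lowest of each group. Cfb was at 6.81, 4.22 and 8.52 in Myh6-ctl and at 6.62, 7.20 and 8.33 in Myh6-tg hearts. All Myh6-tg hearts lay within the control range, and the log2 fold change was 0.18 (SE 0.29, adjusted p = 0.713).

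C1qa was at 96.8, 114 and 129 normalised CPM in Myh6-ctl hearts and at 214, 147 and 133 in Myh6-tg hearts. C1qb was at 107, 139 and 163 in Myh6-ctl and at 304, 165 and 158 in Myh6-tg hearts, and C1qc at 91.5, 111 and 119 in Myh6-ctl and at 266, 136 and 121 in Myh6-tg hearts. For all 3 genes Myh6-tg replicate 1 was far above every other heart, and the remaining Myh6-tg hearts lay close to the highest control. Replicate 1 was also the only Myh6-tg heart with Y-linked counts (7307, against 0 in each of the others). The log2 fold changes were 0.54 (SE 0.23), 0.62 (SE 0.30) and 0.70 (SE 0.31), with edgeR adjusted p-values of 0.149, 0.191 and 0.16. Without that heart they were 0.30, 0.24 and 0.26, while C1ra was then called (0.61, adjusted p = 0.0337), as were 26.7% of all genes. The macrophage marker sum was also highest in that heart, at 2328 normalised CPM against 954 and 914 in the others and 830 to 1401 in Myh6-ctl hearts. Of the 14 macrophage markers 0 were called higher, and Timd4 (log2 fold change -3.93) and Folr2 (-1.39) were called lower, beside 8.96% and 9.38% of all genes. The mean log2 level of the C1q genes relative to these markers was 1.83 to 2.41 for Myh6-ctl and 2.44 to 2.64 for Myh6-tg.

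The C1 protease genes parted in this model. C1ra was at 34.9, 33.5 and 38.4 normalised CPM in Myh6-ctl and at 45.5, 49.4 and 59.7 in Myh6-tg hearts, and every Myh6-tg heart was above every control. C1s1 was at 67.6, 42.1 and 65.9 in Myh6-ctl and at 42.4, 44 and 59.9 in Myh6-tg hearts, which overlapped. The log2 fold changes were 0.53 (SE 0.17, adjusted p = 0.0672) for C1ra and -0.26 (SE 0.24, adjusted p = 0.483) for C1s1. The ratio of C1s1 to C1ra FPKM was 1.27 to 1.97 for Myh6-ctl and 0.906 to 1.03 for Myh6-tg, with no overlap, and this ratio was not tested. C2 was at 1.92, 1.99 and 4.71 normalised CPM in Myh6-ctl and at 5.96, 3.23 and 3.01 in Myh6-tg hearts, which overlapped, and its log2 fold change was 0.50 (SE 0.47, adjusted p = 0.498). In all, C1qa, C1qc, C1ra and C4b, 4 of the 9 members, had every Myh6-tg heart above every Myh6-ctl heart, as did 20.6% of all genes.

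The scale mattered in the Myh6 comparison. Scaling by total counts alone, an alternative chosen after seeing the data, moved the median over all genes from 0.03 to 0.43 on the log2 scale. Under it 5 members were called higher (C1qa, C1qb, C1qc, C1ra and C4b), with C4b at 1.44 and a median of 0.90 over the members. Of all 15298 genes, 26.2% were then called in either direction. Under this scaling and in FPKM the direction of C3 and C1s1 turned, to 0.21 and 0.13 with total counts and to 0.34 and 0.15 on log2(FPKM + 1), none of them called. The lower share of mitochondrial counts and the drop of cardiomyocyte markers, 5 of 8 called lower with sums of 32127 to 43440 in Myh6-ctl against 9256 to 29948 in Myh6-tg hearts, went with this shift, and their part in it was not tested. Of the fibroblast markers 3 were called higher, and Postn had a log2 fold change of 4.23. Of 8 genes of the interferon response 3 were called lower in Myh6-tg hearts, among them Isg15 and Gbp2. In EIIa-tg hearts 1 was called higher, Irf7. With TMM, 8.96% of all genes were called higher and 9.38% lower in Myh6-tg hearts, and 8.65% higher in EIIa-tg hearts.

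**Figure D3:**
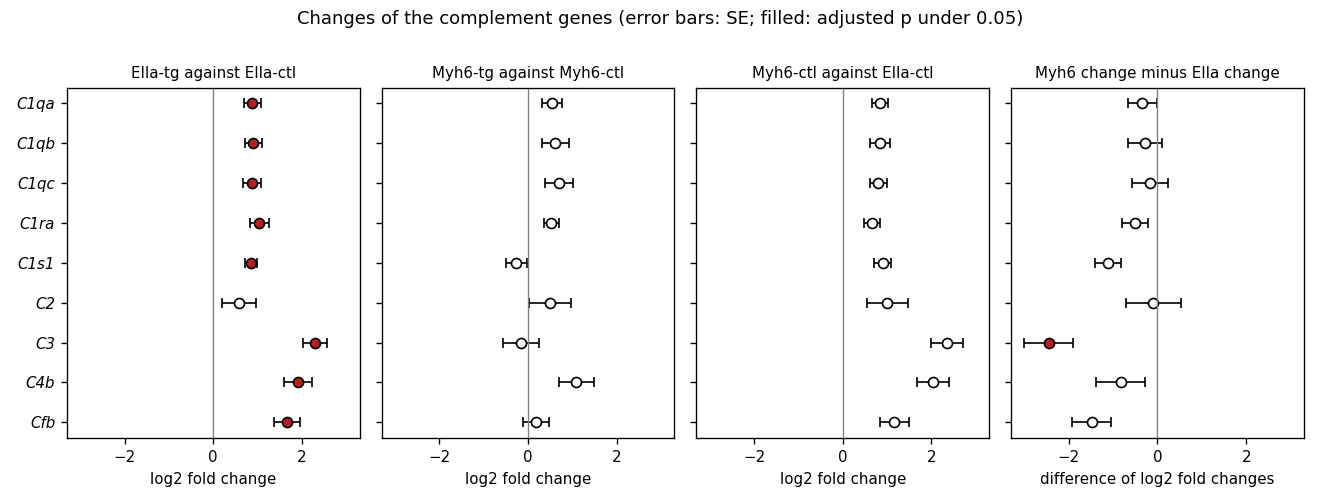
Each row is 1 gene and each panel 1 comparison, with the log2 fold change (in the last panel, the difference of 2 log2 fold changes) as a point, its SE as a bar, and filled points for an adjusted p under 0.05 in edgeR. In the EIIa panel 8 of 9 points are filled, in the Myh6 and control panels none, and in the last panel only C3, at -2.45.

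The mean levels of the members were also higher in Myh6-ctl than in EIIa-ctl hearts. All 9 members had a positive log2 fold change in Myh6-ctl against EIIa-ctl hearts, with a median of 0.90 against 0.02 over all genes, but edgeR called none at an adjusted p under 0.05. In this comparison only 0.02% of 14990 genes were called higher. Unadjusted p-values were under 0.05 for 8 members, all but C2 (0.0564), and in these 8 every Myh6-ctl heart lay above every EIIa-ctl heart, as in 8.72% of all genes. C3 had the largest log2 fold change, 2.36 (SE 0.36, adjusted p = 0.0707), followed by C4b with 2.04 (SE 0.36, adjusted p = 0.0944) and Cfb with 1.16 (SE 0.33, adjusted p = 0.23). The C1q genes were between 0.80 and 0.84, C1s1 at 0.90 and C1ra at 0.65, with adjusted p-values of 0.143 to 0.225. DESeq2 called 7 members higher, all but C1ra and C2, where it called 1.52% of all genes. Without Myh6-ctl replicate 2, the control with the lowest C3, C4b, Cfb and C1s1, edgeR called C3, C4b and C1s1, with log2 fold changes of 2.71, 2.39 and 1.09, and without Myh6-ctl replicate 1 it called 1. Of all genes, 0.216% and 0.639% were called in these fits. Age, the presence of Myh6-creERT2 and oil injection separate these groups together and cannot be told apart. The EIIa-ctl hearts are shared with the EIIa comparison.

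The difference between the changes of the models, tested in all 12 hearts, was called for 1 member. Besides the tissues that express the transgene, the models differed in age, Cre line and injections. These cannot be told apart in this contrast. C3 had a difference of -2.45 (Myh6 change minus EIIa change on the log2 scale, SE 0.55, adjusted p = 0.0301), and 2.27% of the 15929 genes were called lower in this contrast. The level of C3 in Myh6-ctl hearts (307 ± 148 normalised CPM) was already near that of EIIa-tg hearts (295 ± 108) and of Myh6-tg hearts (278 ± 85.8), whereas EIIa-ctl hearts were at 59.8 ± 9.53. Cfb (-1.48, SE 0.44, adjusted p = 0.0892) and C1s1 (-1.11, SE 0.29, adjusted p = 0.057) did not pass. The difference was -0.83 (SE 0.55, adjusted p = 0.446) for C4b, between -0.17 and -0.34 for the C1q genes, -0.51 for C1ra and -0.09 for C2. The call of C3 held without EIIa-tg replicate 2, Myh6-ctl replicate 2 or Myh6-tg replicate 1 and was lost without any of the other 9 hearts, where adjusted p-values reached 0.0902 and the difference lay between -2.13 and -2.53. It was also lost on the FPKM scale (-1.98, adjusted p = 0.0712).

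The members differed in which of the others they followed across the 12 hearts, given as Pearson's r of log2(normalised CPM + 0.5) without a test, since hearts of a group and of an age share their level. The C1q genes had r = 0.99 with each other, and 0.96 to 0.97 after the group means were removed. Their ratios were 1.16 ± 0.0869 for C1qb to C1qa and 0.843 ± 0.0778 for C1qc to C1qa in FPKM over the 12 hearts. C3 and C4b had r = 0.89, and 0.96 within groups, where C3 and C1qa had 0.30. C1ra went with Cfb (0.91, and 0.79 within groups), C1s1 with C3 (0.91 and 0.77), and C2 with the C1q genes (0.88, and 0.79 to 0.82 within groups). Myh6-ctl replicate 2 was the lowest of its group in C3 and C4b and the middle heart in all 3 C1q genes, while EIIa-tg replicate 2 was the lowest of its group in C3 and C4b and also in C1qb and C1qc.

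**Figure D4:**
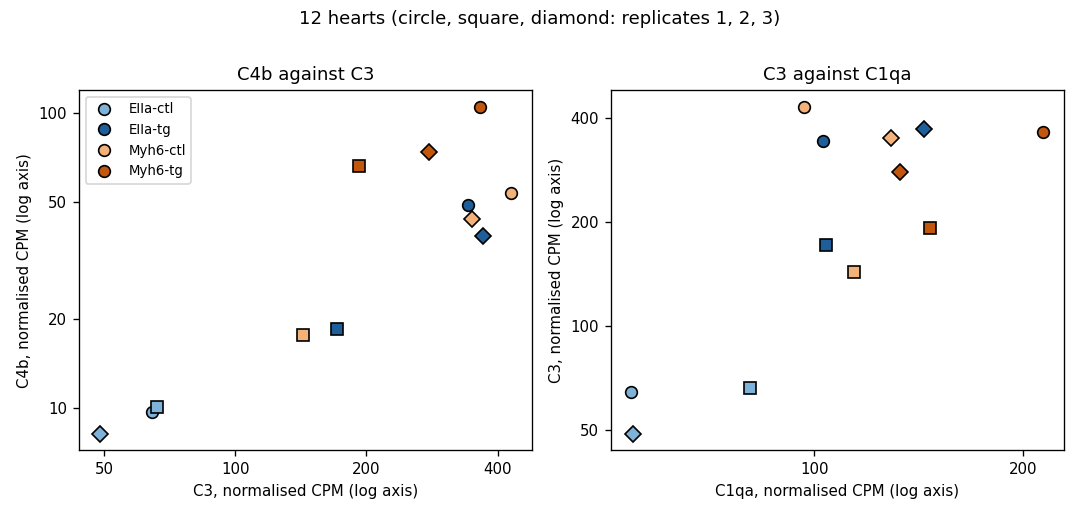
Each symbol is 1 heart, coloured by group, with normalised CPM on log axes. In the left panel C4b follows the order of C3 in every group but EIIa-tg, where replicate 3 has the most C3 and replicate 1 the most C4b. The Myh6-tg hearts hold more C4b at a given C3. In the right panel, where the r within groups is 0.30, hearts with like C1qa differ in C3.

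Among 10370 other genes with a mean of at least 5 normalised CPM, those most like each member over the 12 hearts differed between members. Laptm5 (r = 0.985), Alox5ap (0.980) and Mpeg1 (0.973) were nearest to C1qb, and Laptm5 and Alox5ap were also among the 3 nearest to C1qa, with Laptm5 and Ctss nearest to C1qc. Laptm5 and Mpeg1 are genes of haematopoietic cells and macrophages. C3 was most like Zc3h12a (0.929), Ifi205 (0.918) and Ifi204 (0.909), and C4b most like Ifi207 (0.981), Cyp4v3 (0.962) and Vsig4 (0.961), of which the Ifi genes belong to an interferon-inducible family and Vsig4 encodes a macrophage receptor for C3 fragments. C1ra was most like C3ar1 (0.959), the gene of the C3a receptor, and Cfb most like Igfbp4 (0.935). The nearest gene to C1s1 had r = 0.879 (Cyth4) and to C2 r = 0.953 (Gng2).

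Beyond the members, a list of 49 further genes of the pathway was examined, of which 48 were in the table. In EIIa-tg hearts 10 of the 32 tested were called higher and 3 lower, where 8.65% and 8.3% of all genes were, and the median change was 0.45 on the log2 scale, beside 0.02 over all genes. The same list had 4 of 32 called higher and 1 lower in Myh6-tg hearts, where 8.96% and 9.38% of all genes were, with a median of 0.04 beside 0.03. Between the controls 0 of 30 and in the difference between models 0 of 34 were called by edgeR.

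The receptors held most of the calls in EIIa-tg hearts, with 6 of the 8 tested higher and 1 lower. Vsig4 was at 0.82, 0.703 and 0.707 normalised CPM in EIIa-ctl and 3.94, 1.65 and 5.43 in EIIa-tg hearts, and its log2 fold change was 2.29 (SE 0.44, adjusted p = 0.0195). The integrin genes Itgax and Itgam, which encode chains of the complement receptors CR4 and CR3, had log2 fold changes of 2.27 (SE 0.44, adjusted p = 0.0207) and 1.51 (SE 0.30, adjusted p = 0.0219). C3ar1, for the C3a receptor, rose from 7.13, 9.90 and 6.74 to 19.7, 15 and 28 normalised CPM, by 1.39 on the log2 scale (SE 0.24, adjusted p = 0.0168), and C5ar1, for the C5a receptor, by 1.20 (SE 0.25, adjusted p = 0.0232). In Myh6-tg hearts 0 of the 8 receptor genes were called by edgeR. Vsig4 came nearest, at 5.38, 3 and 5.14 normalised CPM in Myh6-ctl and 22.5, 9.41 and 7.47 in Myh6-tg hearts, with every Myh6-tg heart above every control and a log2 fold change of 1.54 (SE 0.45, adjusted p = 0.0512). C3ar1 was at 0.37 (adjusted p = 0.129), also without overlap, and C5ar1 at 0.01 (adjusted p = 0.977). The differences between models were -1.03 for C3ar1 and -1.19 for C5ar1, with adjusted p-values of 0.0835 and 0.0773. The receptor called lower in EIIa-tg hearts was Cd93 (-0.90), named after its values were seen.

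Of the regulators that restrain the cascade, Serping1 rose in both models. Serping1, which encodes the inhibitor of C1r and C1s, was at 142, 159 and 130 normalised CPM in EIIa-ctl and 351, 219 and 395 in EIIa-tg hearts. It was at 239, 243 and 215 in Myh6-ctl and 396, 457 and 442 in Myh6-tg hearts, so that neither pair of groups overlapped. Its log2 fold changes were 1.16 (SE 0.20, adjusted p = 0.0169) and 0.90 (SE 0.18, adjusted p = 0.0165). Of the membrane regulators, Cd55 was called in neither model (0.16 and 0.10), and Cd59a, which blocks the pore, fell by 0.67 on the log2 scale in EIIa-tg hearts (adjusted p = 0.03), from 68.7, 72.2 and 79 to 47.4, 55.4 and 35.8 normalised CPM. In Myh6-tg hearts the adjusted p of Cd59a was 0.998.

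Masp1, a protease gene of the lectin pathway, and Clu, for the fluid-phase inhibitor clusterin, were called in Myh6-tg hearts. Masp1 was at 5.18, 12.1 and 9.09 normalised CPM in Myh6-ctl and 99.7, 36 and 37 in Myh6-tg hearts, and its log2 fold change was 2.71 (SE 0.49, adjusted p = 0.0119). Clu was at 663, 797 and 497 in Myh6-ctl and 5716, 1727 and 1513 in Myh6-tg hearts, and its log2 fold change was 2.19 (SE 0.54, adjusted p = 0.0302). Replicate 1 was the highest Myh6-tg heart for both, and the other hearts also stood above every control. In EIIa-tg hearts their adjusted p-values were 0.0553 (Masp1) and 0.191 (Clu), and the difference between models was not called for either (0.129 and 0.0973). Vtn, for vitronectin, fell by 1.28 in Myh6-tg hearts (adjusted p = 0.0233) and by 0.59 in EIIa-tg hearts (adjusted p = 0.0271) on the log2 scale. The initiating genes of the list had 1 call in each model, the alternative pathway genes 1 in EIIa-tg hearts and 0 in Myh6-tg hearts. The terminal genes, of which 3 of 7 were tested, had none, and Hc, for C5, stayed under 3 counts in every heart.

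**Figure D5:**
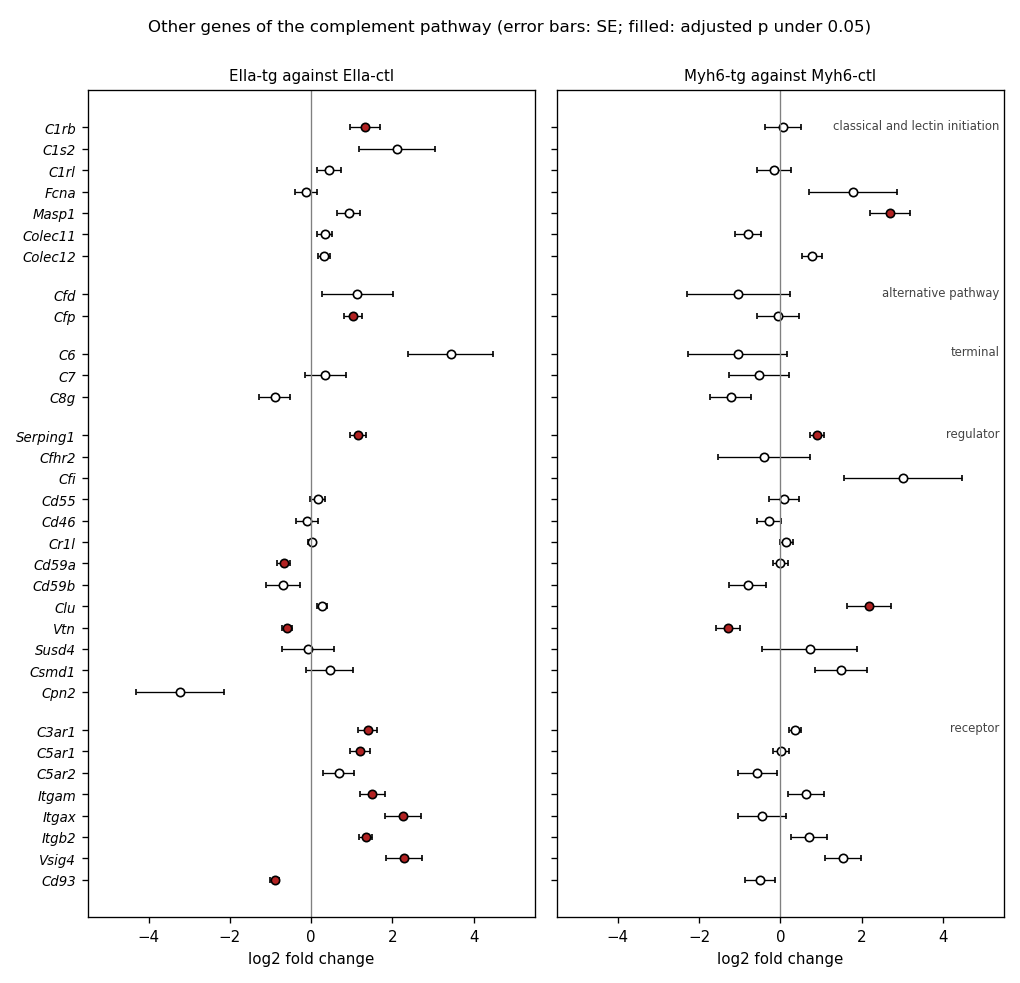
Rows are genes of the wider list that were tested in at least 1 model, grouped by role, with the log2 fold change as a point, its SE as a bar and filled points for an adjusted p under 0.05 in edgeR. The receptor group holds 6 filled points to the right of 0 in the EIIa panel and none in the Myh6 panel, while Serping1 is filled and above 0 in both.

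Of 12 genes of cytokines and factors that act on complement genes, 11 were tested in each model. In EIIa-tg hearts 3 were called higher, beside 8.65% of all genes: Spi1, which encodes PU.1 (log2 fold change 0.86), Cebpb (0.58) and Cebpd (1.30). In Myh6-tg hearts Cebpd was called higher (1.49) and Irf1 lower (-1.10), 1 of 11 each way, near the 8.96% and 9.38% of all genes. Il6 was barely counted, at 0 to 0.163 normalised CPM in EIIa-ctl and 0.267 to 0.735 in EIIa-tg hearts, and Ifng was under 3 counts in every heart. Of the marker lists not yet described, in EIIa-tg hearts 3 of 6 endothelial and 1 of 5 red cell markers were called lower. Among all genes, 8.3% were called lower there. The 1 hepatocyte marker tested there, Ahsg, was called higher (log2 fold change 2.07), and no marker of smooth muscle and pericytes, mesothelium, adipocytes, T cells or B cells was called. In Myh6-tg hearts 1 of 5 smooth muscle and pericyte, 1 of 4 B cell and 3 of 5 red cell markers were called lower and Ahsg higher (2.99), and no endothelial, mesothelial, adipocyte, neutrophil or T cell marker was called. The hepatocyte sum was 2.87 to 9.49 in Myh6-ctl and 29.3 to 50.9 normalised CPM in Myh6-tg hearts, with Alb at 0 in all 6. No marker of these lists was called between the controls. In the difference between models 2 macrophage markers and 1 interferon gene were called lower and 1 fibroblast marker higher. Their part in the complement changes was not tested.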

How the data were processed

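RNA-seq of 12 hearts was used. Per the paper's methods, 150 bp paired-end reads were mapped to GRCm38 with Hisat2 (HISAT2 2.0.4 and StringTie 2.2.1 in the submitters' processing notes, which also name GRCm39). The counting program, strand setting and annotation release are not given in the sources used here. The authors deposited counts, whole numbers of reads per gene without normalisation, and FPKM, which the authors computed per length and per total of fragments. NewGene loci took 2.09% to 4.35% of counts.

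Hearts were grouped by titles, which call them biological replicates, and p-values measure the spread between these hearts. Counts were filtered (filterByExpr), scaled by TMM and tested by quasi-likelihood (glmQLFit, then glmQLFTest, edgeR 4.0.16) in R 4.3.3 over all genes, in the 6 hearts of a comparison, or in 12 for the difference between models, and called at an adjusted p under 0.05. Alternatives were DESeq2 1.42.0, RLE factors, other filters, all hearts in one fit, a replicate block, leaving out mt- genes, NewGene loci or each heart, Y-linked counts as a covariate, the stricter threshold, limma 3.58.1 on log2 FPKM (pseudocount 1 or 0.1, with or without a filter), and total counts alone, added after seeing the data. Same-numbered hearts deviated together in the Myh6 groups (r = 0.279, 0.179 and 0.184), but not in the EIIa groups (0.068, -0.084 and -0.083), and the labels tie no replicate number to a litter.

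The members and lists were chosen with earlier results of these data known. All members are named. Of the wider list, the 4 genes with the largest called change per comparison are named, with Serping1, C3ar1, C5ar1, Cd55 and Cd59a. Values of some genes of the lists are not reported here. The lists were cardiomyocyte, macrophage, fibroblast, endothelial, smooth muscle and pericyte, mesothelial, adipocyte, hepatocyte, neutrophil, T cell, B cell and red cell markers, interferon response genes, and cytokines and factors. Intervals of counting error were not needed, and the floor of 3 counts covers counting error only. Figures were drawn with matplotlib 3.10.9.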

Additional observations from a re-analysis of the deposited data

Results flagged for a closer look

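C3 stood out because the difference of its changes between the models was called. Its log2 fold change was 2.29 in EIIa-tg hearts and -0.15 in Myh6-tg hearts, and the difference of the changes was -2.45 (edgeR, adjusted p = 0.0301). All 3 EIIa-tg hearts lay above all 3 EIIa-ctl hearts, and the Myh6-tg hearts lay within the range of the Myh6-ctl hearts. Between the controls, C3 was at 59.8 ± 9.53 normalised CPM in EIIa-ctl and 307 ± 148 in Myh6-ctl hearts, which edgeR did not call (adjusted p = 0.0707). The call of the difference was lost in limma on FPKM and in most of the tests that left out a single heart.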

How the results depend on the processing

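Of 729 values of single members under an alternative, 601 kept their direction and their side of the threshold, 63 lost a call, 42 gained one and 23 changed direction. In the EIIa comparison, where 8 members were called, the number was 4 with all 12 hearts in one fit, 0 with limma on log2(FPKM + 1) without a filter and 0 at the stricter threshold in edgeR, which 4 passed with DESeq2, 3 with no filter and 4 without EIIa-tg replicate 2. The fit of all 12 hearts called 1.43% of all genes, and limma without a filter called 0.00513%. Leaving out 1 heart gave 0 to 8 there, 0 to 1 in the Myh6 comparison, 0 to 3 between the controls and 0 to 3 for the difference between models. With the replicate block 0 members were called in the EIIa comparison, where same-numbered hearts did not deviate together and 1 of all genes was called. The block called 1 member in the Myh6 comparison, and with it the difference of C2 was 0.06. The block changed no other count of members called. In the Myh6 comparison DESeq2 and the Y-linked covariate called 1 member each, limma called 5 with a pseudocount of 1, 5 with 0.1 and 2 with no filter, and total counts alone gave 5. In this order, they called 19.3%, 24.1%, 32.7%, 32.4%, 16.9% and 26.2% of all genes. Between the controls DESeq2 called 7 and no filter gave 2, beside 2.23% and 0.338% of all genes. For the difference between models DESeq2 called 3, no filter 2, leaving out the mt- genes 2, limma 0 in each of its 3 forms and the stricter threshold 0 in edgeR and 2 in DESeq2. DESeq2, no filter and leaving out the mt- genes called 6.72%, 2.81% and 3.84% of all genes there. The stricter threshold was passed by 99 of 15929 genes in edgeR and 616 of 20747 in DESeq2. C1s1 turned to 0.15 (limma, also with no filter), 0.16 (pseudocount 0.1) and 0.13 (total counts) in the Myh6 comparison, and C3 to 0.34 (likewise), 0.35 and 0.21. Leaving out 1 heart moved C3 between -0.49 and 0.18 and Cfb between -0.05 and 0.41 there. The difference of C2 was 0.20 under all 3 limma forms and 0.02 with total counts. Over the hearts left out it lay between -0.47 and 0.46, and that of C1qc between -0.62 and 0.03. The cause of these shifts was not tested, other than that a test without a heart has fewer samples. Depth limits C2 most, with 39 to 279 counts per heart.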
